A study of Mus musculus with 2 samples.

Results

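The genes described here are 10 genes that mark the epithelium of the choroid plexus: 1500015O10Rik (now named Ecrg4), Wfdc2, Enpp2 and Sostdc1, whose products are secreted, the receptor genes Folr1 and Prlr, the transcription factor gene Otx2, the keratin genes Krt8 and Krt18, and Calml4. They were selected by their gene name in the scanner files, and the choice was made with their difference between these same arrays in view, so every value of that difference is a description and not a test. All 10 were well above background on both arrays, out of 25917 genes so measured, and they are covered by 16 of the 55674 probes left after outlier spots were removed. RNA came from hippocampus of ICR mice, which are an outbred stock, in a 5/6Nx group and a sham-operated group, each sampled 8 weeks after surgery. The operation, 5/6 nephrectomy, takes away most kidney tissue and is used to model chronic kidney disease. Each group is 1 array of Cy3-labelled RNA, so the data hold no replicate check, and the sources used here do not give the age or the sex of the mice or how many mice gave the RNA.

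The choroid plexus is a folded sheet of epithelial cells in the brain ventricles that secretes cerebrospinal fluid and forms the barrier between blood and that fluid. Its cells secrete carrier proteins and signalling molecules into the ventricles, move vitamins such as folate across, and carry simple-epithelium keratins that brain tissue around them largely lacks. It lies in the lateral ventricle beside the hippocampus. In RNA from a whole piece of tissue, more choroid plexus cells and more RNA per cell cannot be told apart.

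The probes are 60 bases long, and where a gene had 2 of them their position decides which transcripts they read. Shown are 30-base stretches, 5′ to 3′ as synthesised, for the 3 genes whose probes differed most in their reading (Otx2, Prlr and Folr1) and for Krt8, whose probes read alike within the scanner error. Capitals mark the letters AATAAA, the common polyadenylation signal, where the probe holds them.
Otx2, downstream probe, chr14:49277855-49277914: tttcagggctgtgtggattgtgcgactgat
Otx2, upstream probe, chr14:49284952-49285011: gggacgtgtgcccctcggattatctcgtta
Folr1, downstream probe, chr7:109006846-109006905: gacagcctctttAATAAAccagacattcca
Folr1, upstream probe, chr7:109016972-109017031: ctgggctttttcctgtgctccgagtaggtg
Prlr, downstream probe, chr15:10259066-10259125: caggttaacactacagagtcatgaaggaat
Prlr, upstream probe, chr15:10255629-10255688: cttgaaagacacaactgtgtggatcattgt
Krt8, downstream probe, chr15:101827138-101827197: tgtattttctaaAATAAAgcctcagctggc
Krt8, upstream probe, chr15:101828827-101828886: agatctccgagatgaaccgcaacatcaacc
Positions are given on mm9, as in the scanner files, with Otx2, Folr1 and Krt8 on the minus strand and Prlr on the plus strand. No transcript model of that build was used here, so exon and UTR positions are not given. The letters AATAAA stood in 3 of the 16 probes (Folr1, Krt8 and Wfdc2), against 10.1% of all probes on the array. No stretch of 20 bases in any of the 16 probes recurred in a probe of another gene name.

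All 10 genes were at least 2-fold higher in the 5/6Nx sample, a size used here to count genes and not a test. Of all measured genes 4.9% reached 2-fold in that direction, 3.28% in the opposite one and 8.18% in either, but since the genes were chosen from this contrast nothing is read from that gap. Differences are log2 values of 5/6Nx minus those of sham, with the 75th percentile of processed intensity of the array as its unit. They ran from 1.56 to 4.52 with a median of 2.52, which is 5.75-fold, whereas the median of all measured genes was 0.05. At least 4-fold higher were 8 of the 10, and 0.567% of all measured genes. The error given below is that of the scanner software's error model, carried to the difference, and it covers the reading of the spots and not the variation between mice.

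**Figure D1:**
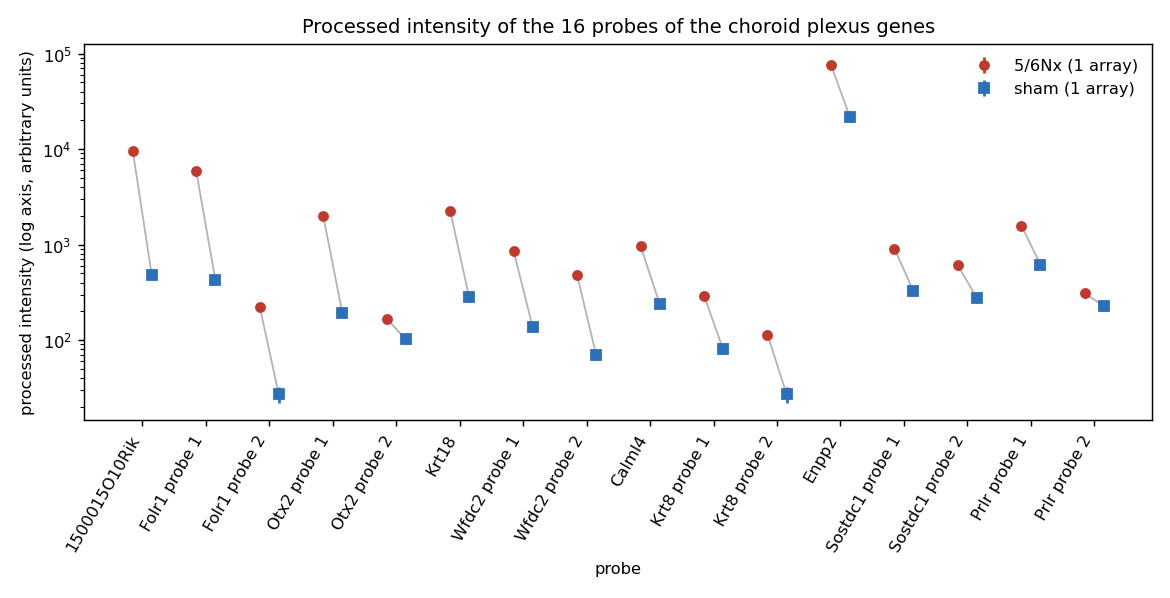
Processed intensity (log axis, arbitrary units) of each of the 16 probes in the 5/6Nx array (red circles) and the sham array (blue squares), with the scanner's error as bars, mostly smaller than the symbols. The 5/6Nx value lies above the sham value for all 16 probes, with the narrowest gap at the second Prlr probe, at 308 in 5/6Nx and 226 in sham.

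Among the secreted products 1500015O10Rik had the highest difference of the 10. It encodes augurin, a precursor of secreted peptides made by choroid plexus epithelium. Its only probe, on chromosome 1 at 43799321 to 43799380, read 9510 in 5/6Nx and 475 in sham, a difference of 4.52 ± 0.20 or 23.0-fold. That difference ranked 9 from the top among the 25917 measured genes. Wfdc2, which encodes a secreted protein with whey acidic protein domains, was read by 2 probes on chromosome 2 that lie 4331 bases apart. The downstream probe read 856 in 5/6Nx and 137 in sham, and the upstream probe read 481 in 5/6Nx and 70.2 in sham. Their differences of 2.84 and 2.98 were closer together than the scanner error of that gap (0.30). The difference of Wfdc2 was 2.31 with normexp background correction and 2.24 with no background subtraction.

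Enpp2 encodes autotaxin, the secreted enzyme that makes lysophosphatidic acid, and it is also known as a product of oligodendrocytes. Its probe on chromosome 15, at 54670921 to 54670980, read 75712 in 5/6Nx and 21575 in sham, and the difference was 2.01 ± 0.20 (4.04-fold). Of 13 measured oligodendrocyte markers 1 was at least 2-fold higher (Mobp, 1.44) and 2 were at least 2-fold lower (Opalin at -2.30 and Ugt8a at -1.87), with a median of -0.30. Their summed intensity, in units of each array's 75th percentile, was 284 in 5/6Nx and 233 in sham. Without Ermn, the brightest, the sums were 151 in 5/6Nx and 158 in sham. Sostdc1 encodes a secreted antagonist of bone morphogenetic proteins that also acts on Wnt signalling. Its probes lie 335 bases apart on chromosome 12, and read 908 and 605 in 5/6Nx, against 325 and 275 in sham. The differences were 1.68 and 1.34, both above 2-fold.

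The receptor genes lay at opposite ends of the range. Folr1, which encodes the folate receptor that carries folate towards the cerebrospinal fluid, read 5858 in 5/6Nx and 429 in sham at its downstream probe, a difference of 3.97 ± 0.20 (15.7-fold). The upstream probe, 10126 bases away, read 224 in 5/6Nx and 27.0 in sham, a difference of 3.25 ± 0.31. The scanner files list 4 RefSeq transcripts for the downstream probe and 2 of those 4 for the upstream probe.

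Prlr, the prolactin receptor gene, had the lowest difference of the 10. The downstream probe read 1581 in 5/6Nx and 617 in sham, a difference of 1.56 ± 0.20 (2.95-fold), whereas the upstream probe read 308 in 5/6Nx and 226 in sham, a difference of 0.65 ± 0.21. This upstream reading was below 2-fold, and the gap of 0.91 between the probes was 3.13 times its scanner error. The files list 3 RefSeq transcripts for the upstream probe and 1 of those 3 for the downstream probe.

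Otx2 encodes a homeodomain transcription factor that choroid plexus development requires, and its probes disagreed more than those of any other of the 6 genes with 2 probes. The downstream probe read 2013 in 5/6Nx and 194 in sham, a difference of 3.58 ± 0.21 (11.9-fold). The upstream probe, 7097 bases away, read 168 in 5/6Nx and 102 in sham, a difference of 0.92 ± 0.22, which is below 2-fold. The gap of 2.66 was 8.91 times its scanner error, and averaging the probes gave 2.25 for the gene in place of 3.58. RefSeq's promoter table for GRCm38.p6 holds 4 starts for Otx2, and the whole upstream probe was found, on the strand of the gene, in the window before the start at which the following sequence ends. That window is chr14:48665110-48665359 on the minus strand, and the capitals are the 60 bases of the probe, which occupy 227 to 168 bases before the start.
Otx2, bases before the start: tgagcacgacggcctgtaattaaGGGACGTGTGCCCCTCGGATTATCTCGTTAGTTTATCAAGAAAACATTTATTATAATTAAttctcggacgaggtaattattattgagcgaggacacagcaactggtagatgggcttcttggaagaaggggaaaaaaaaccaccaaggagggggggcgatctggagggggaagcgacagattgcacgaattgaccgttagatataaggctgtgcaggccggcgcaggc
A transcript that begins at that start does not contain the probe, and the scanner files name an Ensembl transcript and no RefSeq transcript for it. The Otx2 starts with windows at chr14:48667645-48667894 and chr14:48667509-48667758 lie upstream of the probe. Whether transcripts from those starts contain the probe was not examined. None of the other 15 probes matched any window in the promoter table.

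Krt8 and Krt18 encode the type II and type I keratins that pair into the filaments of simple epithelia, and the genes are close neighbours on chromosome 15. Krt18, at 101862341 to 101862400, read 2268 in 5/6Nx and 280 in sham, a difference of 3.22 ± 0.21 (9.32-fold). Krt8 read 293 in 5/6Nx and 80.3 in sham at the downstream probe, a difference of 2.07 ± 0.22 (4.19-fold). Its upstream probe, 1689 bases away, read 114 in 5/6Nx and 27.3 in sham, a difference of 2.27 ± 0.33. The probes of Krt8 therefore differed by less than the scanner error of their gap (0.39). The difference of Krt8 was 1.51 with normexp background correction and 1.43 with no background subtraction.

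Calml4 encodes a calmodulin-like protein known as a light chain of an unconventional myosin in the intestinal brush border. Its probe spans 4082 bases of chromosome 9, from 62719231 to 62723312, so its 60 bases cross at least 1 intron. The probe read 968 in 5/6Nx and 242 in sham, a difference of 2.20 ± 0.21 (4.61-fold). Calm2 (-0.15) and Calm3 (-0.24), which encode calmodulin and are named here for their role, stayed below 2-fold.

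**Figure D2:**
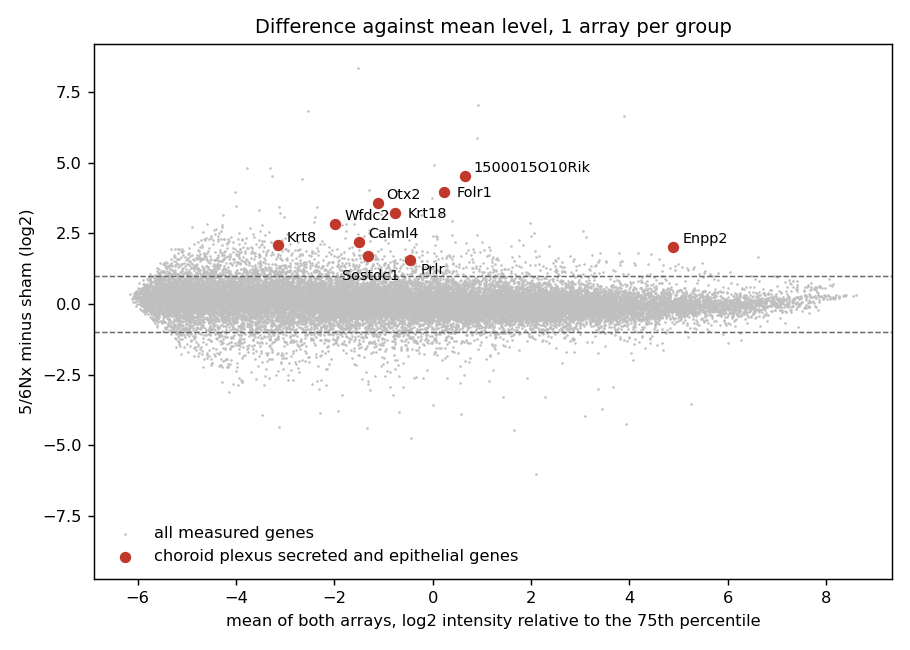
Difference (5/6Nx minus sham, log2) of each measured gene against its mean log2 intensity over both arrays, relative to the 75th percentile, with all 25917 measured genes in grey and the 10 choroid plexus genes in red. Dashed lines mark 2-fold, and all 10 red points lie above the upper line, between 1.56 and 4.52.

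Local background around the 16 spots was 61.5 to 67 in 5/6Nx and 62 to 67 in sham, and the spots lay apart on the array, in rows 62 to 371 and columns 4 to 159. The mean pixel intensity was 2.68 to 1054 times the local background in 5/6Nx and 1.62 to 294 times in sham. No spot on either array was saturated, and 72.5% of 59305 spots in 5/6Nx and 72.7% in sham were well above background. Over 7995 genes with several measured probes, the SD of the difference among probes of the same gene had a median of 0.20.

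The other genes of choroid plexus epithelium differed in the same direction, though not all of them. Of 30 genes in this list 27 were measured, of which 16 reached 2-fold higher and 1 reached 2-fold lower in 5/6Nx, with a median of 1.53 against 0.05 over all measured genes. Among genes of the list above the median signal, the median was 0.69, below 2-fold. The thyroid hormone carrier gene Ttr (6.66), the chloride channel gene Clic6 (4.90), the potassium channel subunit gene Kcne2 (4.81) and the bicarbonate transporter gene Slc4a5 (4.51) had the largest differences. Cldn2, a tight junction gene of this epithelium, was above background in 5/6Nx only and at least 8.34-fold higher, and Prr32 likewise at least 11.5-fold higher. For such a bound the dim side is taken as the lowest value well above background on its array, or as the probe's own value where that is higher. The sulphate transporter gene Slc13a4 was lower, at 4060 in 5/6Nx and 12158 in sham (-1.38). Below 2-fold, and named for their role, were the water channel gene Aqp1 (0.55), Spint2 (-0.07) and Igfbp2 (-0.30). Scaled intensity summed over the 27 measured genes was 202 in 5/6Nx and 39.4 in sham, in units of each array's 75th percentile. Ttr alone made up 150 of that sum in 5/6Nx and 1.49 in sham, and without it the sums were 52.1 in 5/6Nx and 37.9 in sham. What part cell number had in these values was not tested.

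**Figure D3:**
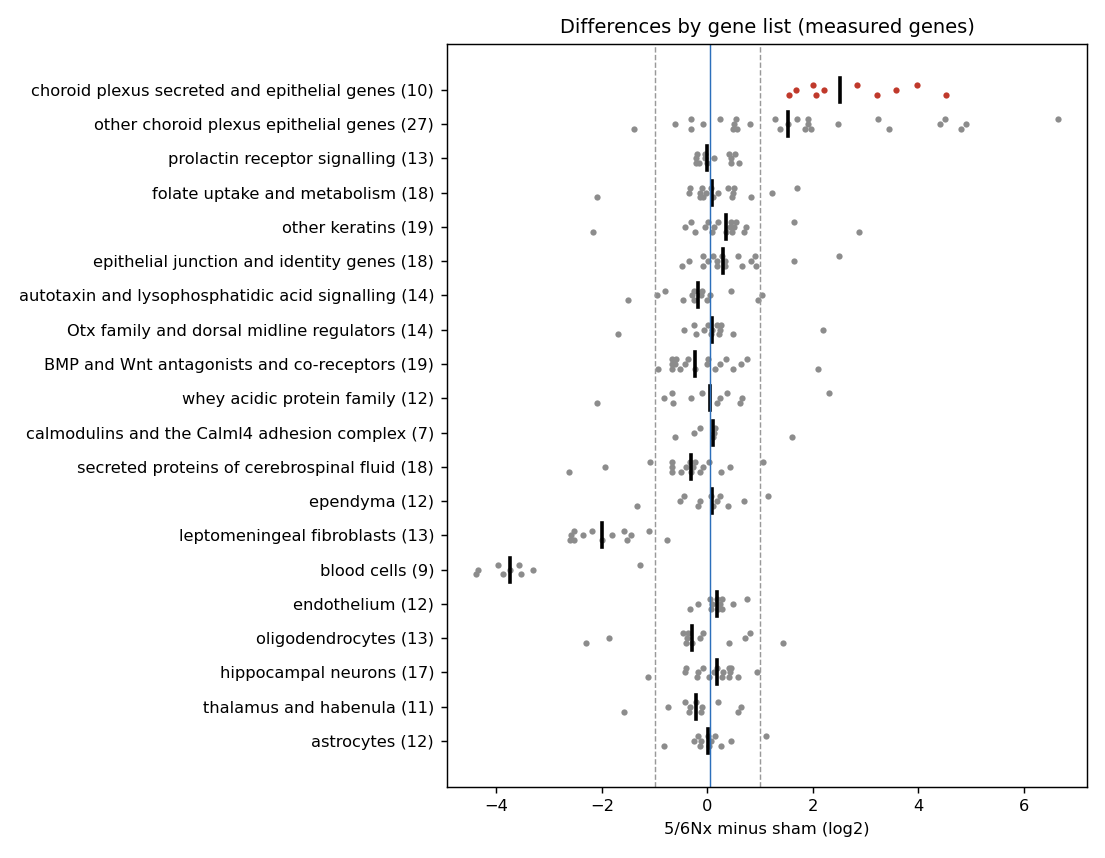
Difference (5/6Nx minus sham, log2) of each measured gene, 1 dot per gene, for the 10 choroid plexus genes (red) and 19 other lists (grey), with the number of measured genes in brackets and the list median as a black bar. Dashed lines mark 2-fold and the blue line the median of all measured genes (0.05). The other choroid plexus genes have a median of 1.53, and the leptomeningeal (-1.99) and blood cell (-3.73) lists lie below 0.

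Markers of other cell types that a hippocampal piece can hold were set beside these values. Of 12 measured markers of ependyma, the ciliated lining of the ventricles, 1 was at least 2-fold higher (Cfap126, 1.15) and 1 at least 2-fold lower (Rarres2, -1.33), with a median of 0.09 and summed scaled intensities of 9.35 in 5/6Nx and 11.0 in sham, or 8.10 in 5/6Nx and 7.90 in sham without Rarres2. Of 14 markers of leptomeningeal fibroblasts, 13 were measured and 12 were at least 2-fold lower, with a median of -1.99 and the lowest values at Slc22a6 (-2.61) and Aldh1a2 (-2.59). Their summed scaled intensity was 15.3 in 5/6Nx and 57.7 in sham. Of 13 blood cell genes 9 were measured and 3 were above background in sham only. All 9 were at least 2-fold lower, with a median of -3.73, led by the neutrophil genes S100a9 (-4.39) and S100a8 (-4.34), and the sums were 18.6 in 5/6Nx and 226 in sham. The meningeal and blood differences are measured facts on these same arrays, and their part in the differences of the 10 genes was not tested.

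Endothelial genes had a median of 0.19 with 0 of 12 at least 2-fold apart, and Plvap, the marker of the fenestrated vessels that choroid plexus contains, was at 0.75, with Slco1a4 at 0.50. Of 12 astrocyte markers 1 was at least 2-fold higher (Gfap, 1.12), and Aqp4 stood at -0.83. All 17 hippocampal neuron markers in the list were measured on both arrays, among them Prox1 and Neurod6. Their median was 0.19, and 1 was at least 2-fold lower (Wfs1, -1.12), while Tdo2 stood at 0.94. Of 11 measured markers of thalamus and habenula, regions near the hippocampus, 1 was at least 2-fold lower (Slc17a6, -1.58), and Nwd2 stood at -0.74. The median was -0.22, and 3 of the 11 were above 0, with the highest values at Tcf7l2 (0.64) and Prkcd (0.59).

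The partners of the 10 genes in their pathways were examined next, from lists that group them by role. The prolactin gene Prl did not exceed background clearly on either array, and none of the 13 measured genes of prolactin receptor signalling reached 2-fold. The largest were the cytokine signalling suppressor gene Socs2, at 2252 in 5/6Nx and 1699 in sham (0.61), and the growth hormone receptor gene Ghr (0.52). Jak2, the kinase bound to the receptor, stood at -0.21, and its target Stat5a at 0.42, both named for their role. The list median was -0.0033, against 0.05 over all measured genes.

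Of 18 genes of folate uptake and metabolism, all measured, 2 were at least 2-fold higher: Shmt1, an enzyme that passes carbon units between serine and folate, read 505 in 5/6Nx and 179 in sham (1.70), and Mthfd1l stood at 1.23. Ftcd, an enzyme of histidine breakdown, was lower, at 38.9 in 5/6Nx and 191 in sham (-2.09). The other routes for folate stayed below 2-fold: the proton-coupled transporter gene Slc46a1 at -0.35, the reduced folate carrier gene Slc19a1 at 0.40, and Folr2, the next gene to Folr1 on the chromosome, at -0.02. These 3 are named for their role.

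Among 28 other keratins 19 were measured, with a median of 0.36. Krt9, known from skin of palms and soles, read 13407 in 5/6Nx and 2108 in sham (2.87), and Krt6a read 122 in 5/6Nx and 44.9 in sham (1.65). Krt15 was lower, at 26.4 in 5/6Nx and 136 in sham (-2.16). Krt12, known from cornea, was above background in 5/6Nx only and at least 38.9-fold higher. Of the other simple-epithelium keratins, named for their role, Krt19 stood at 0.74, Krt7 did not exceed background clearly on either array, and Krt20 was at least 1.46-fold higher with signal in 5/6Nx only, a bound that leaves its size unknown.

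The median of 18 measured genes, out of 24 of epithelial junctions and identity, was 0.30, and 2 reached 2-fold higher. The claudin gene Cldn3 read 149 in 5/6Nx and 30.2 in sham (2.50), and the RNA-binding protein gene Rbm47 read 260 in 5/6Nx and 96.2 in sham (1.64). Epcam, a general marker of epithelia, did not exceed background clearly on either array, and the cadherin gene Cdh1 was above background in sham only and at least 5.95-fold lower. Above background in 5/6Nx only were Cldn2, also in this list, at least 8.34-fold higher, and Esrp2, at least 2.05-fold higher. The desmosome gene Dsp (0.58) also marks dentate granule cells and is in the hippocampal neuron list as well.

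Autotaxin acts through receptors for lysophosphatidic acid, and lipid phosphatases end the signal. Of 14 measured genes of this system and of the Enpp family, 1 was at least 2-fold higher, the phospholipase gene Pla1a (1.04). At least 2-fold lower was 1, Enpp1 (-1.50), listed as a family relative of Enpp2, and the median was -0.18. The receptor genes Lpar5 (0.97) and Lpar1 (-0.80) were both below 2-fold, and Lpar3 was not well above background.

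In the list of Otx relatives and regulators of the dorsal midline, the embryonic source of the choroid plexus, 14 of 18 genes were measured. Lmx1a, a homeobox gene of that midline, was higher, at 162 in 5/6Nx and 40.7 in sham (2.19), and the Notch target Hes5 was lower, at 5192 in 5/6Nx and 19182 in sham (-1.68). Otx1 was at 0.19, and Crx, the third member of the family, was not well above background. Of 19 measured antagonists and co-receptors of bone morphogenetic protein and Wnt signals 1 was at least 2-fold higher: Chrd, which encodes chordin, read 2068 in 5/6Nx and 552 in sham (2.11). Bmper had the next largest size (-0.94), and the Sostdc1 relative Sost was not well above background.

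The family of whey acidic protein genes, to which Wfdc2 belongs, had 12 of 21 members measured. Wfdc6a was at least 2-fold higher, at 141 in 5/6Nx and 32.9 in sham (2.30), Wfdc6b was above background in 5/6Nx only and at least 7.18-fold higher, and Wfdc18 was lower (-2.09). In the list of calmodulins and partners of Calml4, 7 of 11 genes were measured. The adhesion complex gene Anks4b was higher, at 62.0 in 5/6Nx and 23.5 in sham (1.60), Cdhr5 stood at -0.61, and Myo7b was not well above background.

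Of 18 other genes of proteins in cerebrospinal fluid, all measured, 1 was at least 2-fold higher, the growth factor gene Vegfa (1.05), and 3 were at least 2-fold lower, Lcn2 (-2.63), Spp1 (-1.94) and B2m (-1.09), with a median of -0.31. The abundant secreted proteins of the list, named for their role, stayed below 2-fold: Apoe, the brightest of the list, at 0.42, Clu at 0.25, Cst3 at -0.09, Ptgds at -0.14 and Trf at -0.23.

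The nearest measured genes on the chromosomes were compared with each of the 10. Leaving aside Krt8 and Krt18, which are each other's nearest measured gene on 1 side, there were 18 such neighbours, with a median of -0.02. Of these 1 was at least 2-fold higher, Wfdc6a beside Wfdc2 (2.30), and 1 at least 2-fold lower, Ccn3 beside Enpp2 (-1.33), which encodes a secreted matricellular protein. The other 16 lay between -0.62 (Tmem260, beside Otx2) and 0.43 (Krt79, beside Krt8). The neighbours of 1500015O10Rik, Nck2 (0.24) and Uxs1 (0.23), and of Folr1, Folr2 (-0.02) and Anapc15 (-0.35), stayed below 2-fold.

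**Figure D4:**
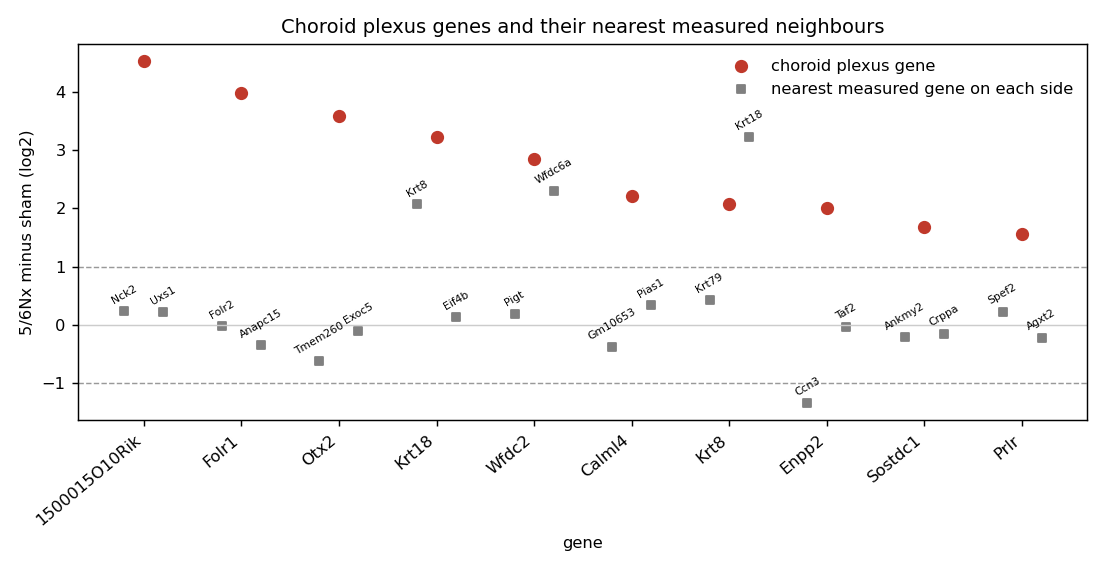
Difference (5/6Nx minus sham, log2) of the 10 choroid plexus genes (red circles) and of the nearest measured gene on each side (grey squares, lower coordinate to the left), with dashed lines at 2-fold. Apart from Krt8 and Krt18, which neighbour each other, Wfdc6a (2.30) lies above and Ccn3 (-1.33) below the 2-fold lines.

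The RefSeq promoter table held 13 starts for 7 of the 10 genes, and the 250 bases before each were searched on both strands for 4 short motifs. TAATCC, the site of bicoid-class homeodomain factors such as the Otx2 protein, was found before 1 start of 1 gene, Otx2 itself, against 6.25% of 32851 starts in the table. TATAAA was found before 1 start, also of Otx2, against 12.4%, CCAAT before 2 starts, of Otx2 and Prlr, against 33.8%, and GGGCGG before 3 starts, of Calml4 and Wfdc2, against 32.7%. The match of TAATCC, read as GGATTA on the strand of the gene, lies inside the capitals of the Otx2 window shown above. The share of G and C in the 13 windows ran from 32.8% to 64.8%, with a median of 52.4% over all windows. Nothing is read from the absence of these letters in the other windows.

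Other ways of processing the same arrays were compared. Of 104 values that 11 alternatives gave for the 10 genes, 28 were identical to those reported, since filters and outlier spots did not touch these probes or a gene had a single probe. The other 76, from 8 alternatives, were all past 2-fold higher in 5/6Nx, a direction that the choice of genes on these arrays favours. The lowest was that of Prlr when its probes were averaged, and the highest was 4.53, for 1500015O10Rik. In the authors' deposited normalized table the differences of the representing probes ran from 1.52 to 4.51. At 3-fold 9 of the 10 were counted, without Prlr, and 387 of all 25917 measured genes were higher by that size.

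**Figure D5:**
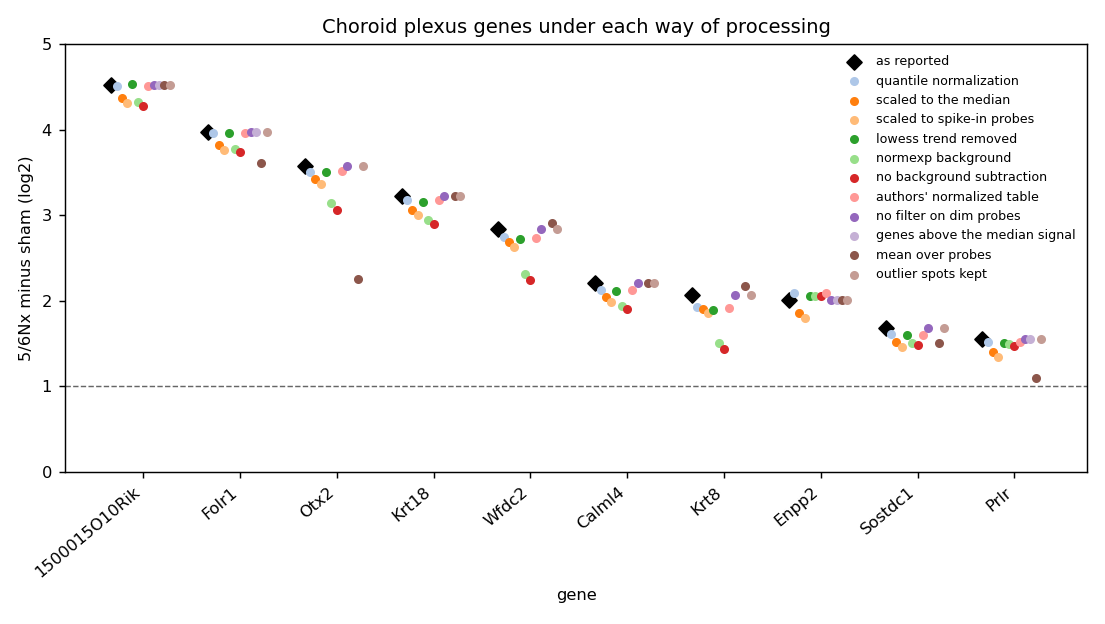
Difference (5/6Nx minus sham, log2) of each of the 10 genes as reported (black diamonds) and under 11 other ways of processing the same arrays (coloured dots), with a dashed line at 2-fold. All points lie above the line, and the widest spread is that of Otx2, from 2.25 with the mean over its probes to 3.58 as reported.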

How the data were processed

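Hippocampal RNA was read on 1-colour (Cy3) Agilent arrays, 1 for each group, per the labels' protocols. The deposited scanner output holds linear intensity per spot. Feature Extraction made these values, in version 10.7.1.1 per the file headers and 9.5.1.1 per the submitters' processing notes. The processed intensity is background-subtracted and detrended within an array but not normalized between arrays, per the file headers. The deposited series table holds intensity that the authors normalized, and its method is not given in the sources used here. As judged from the values, both columns have equal medians (124), and their sorted values are at most 0.032% apart. Quantile normalization makes sorted values alike in this way, so the alternative with that normalization and the authors' table are not separate checks.

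Control spots and spots flagged as outliers (97 in 5/6Nx, 105 in sham) were left out. Processed intensity was divided by the 75th percentile of its array (1264 in 5/6Nx, 1453 in sham) and put on the log2 scale. For each gene 1 probe was used, that of highest mean log2 value among probes that 1 array or both showed well above background, and the gene counted as measured when both did. Probes were renamed through RefSeq (GRCm38.p6): 27235 through an accession, 3581 through a symbol and 565 through a synonym, while 24300 kept their name in the file. The 10 genes, the lists and the rule for named genes were chosen with earlier results of these data known. The rule took the 10 genes, the 2 to 4 largest differences of each list, neighbours, and genes needed for their role. Each group has 1 array, so no test was made, and precision is limited by the number of arrays. Simulated data were used to check the calculation. limma 3.58.1 gave normexp (offset 50) and quantile normalization, and statsmodels 0.14.6 the lowess fit (span 0.3).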

Additional observations from a re-analysis of the deposited data

How the results depend on the processing

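No paired analysis was possible because the design has a single array for each group, and for the same reason none could be left out. Dim probes are limited by their signal over background. The 10 genes were chosen for their size on these arrays, so their staying above 2-fold is no independent support. For values that differ below, the cause was not tested, except that filters and fold limits set the counts made with them. The median of the 10 genes was 2.31 with scaling to spike-in probes, 2.18 with normexp, 2.15 with no background subtraction and 2.23 with the mean over probes. With only genes above the median signal 4 of the 10 were left, with a median of 2.99. Their values, all past 2-fold, are those reported above, since this filter changes no value. Among all genes above the median signal, 320 were at least 2-fold higher. In the same order, with spike-in scaling, normexp, no subtraction and genes above the median signal, the other choroid plexus list had medians of 1.31, 1.32, 1.26 and 0.69. Genes at least 2-fold higher and lower, 1270 and 849 as reported, were 801 and 1406 with spike-in scaling, 685 and 493 with normexp, 642 and 466 with no subtraction, 2592 and 1665 without the filter, 320 and 303 for genes above the median signal, 3560 and 2310 at 1.5-fold and 387 and 245 at 3-fold. The share of these differences that were higher, 59.9% as reported, was 49.8% with quantile normalization, 47.9% with the lowess trend removed, 49.4% in the authors' table, 42.3% with scaling to the median and 36.3% with spike-in scaling. The median of all genes moved to -0.10 with scaling to the median and to -0.16 with spike-in scaling. Of 19 list medians, 8 changed sign with spike-in scaling, none of them larger than 0.19 as reported. With only genes above the median signal 4 changed sign. The largest of these was the list of bone morphogenetic protein and Wnt antagonists, from -0.23 as reported to 0.08.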

Other observations

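With 2 arrays, likeness of pattern reduces to likeness of the difference. Among 9835 genes above the median signal with an ordinary symbol, the 3 whose difference lay nearest to the median of the 10 choroid plexus genes (2.52) were Etnppl (2.43), an enzyme gene of astrocytes, Dab1 (2.39), an adaptor of reelin signalling, and Fam205a2 (2.37). None of the 3 is in a list used here.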
